A study of Homo sapiens with 12 samples.

Results

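The insulin-like growth factor (IGF) binding proteins were followed in U937 cells as the 7 genes IGFBP1 to IGFBP7, taken by their gene symbols from the 44786 symbols of the deposited table. The set was chosen by the measured induction of IGFBP5, which had the highest log2 fold change of all tested transcripts with DAC and with DAC + ATRA. The values of IGFBP5, with their intervals and standard errors, are therefore given as a description without a test. The other 6 genes were taken by name. Their RNA was measured in 12 libraries of U937, a human AML cell line of myelomonocytic origin, so all groups come from a single line. There were 3 libraries each of untreated cells and of cells given decitabine (DAC, 200 nM, renewed daily for 3 days), all-trans retinoic acid (ATRA, 1 µM) or both agents. The labels state 72 h for the treated and 96 h for the untreated cells, and a medium with 20% FCS and 5 ng/ml GM-CSF for all groups. By contrast, the published methods harvest every culture at 72 h and add ATRA only with the last DAC dose. They also give a lower share of FCS and do not name GM-CSF. The 3 libraries of a group are described as technical triplicates in the design text of the series, so the spread between them, and every p-value built on it, may be technical.

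IGF-binding proteins are secreted proteins that hold IGF1 and IGF2 in the extracellular space, prolong their life and control how much of them reaches the IGF1 receptor. IGFBP1 to IGFBP6 bind IGFs with high affinity, while IGFBP7 binds them weakly and is often called a related protein. Proteases such as PAPPA cleave IGFBP4 and IGFBP5 and set the growth factor free, and the stanniocalcins STC1 and STC2 inhibit PAPPA. IGFBP5 is known best from fibroblasts, smooth muscle, bone and mammary gland. DAC is built into DNA in place of cytosine, holds DNA methyltransferases there and so lowers methylation in dividing cells. ATRA binds the retinoic acid receptors, which recognize direct repeats of a short half-site in DNA.

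The 12 libraries held 8042435 to 10683593 counted reads. Each value is a normalized read count, that is the reads counted for a transcript divided by the size factor of its library. Of 12 monocytic and myeloid markers, 8 were above 3 reads in every untreated library, among them CD33 at a mean of 848 normalized reads in untreated and 763 in DAC + ATRA-treated cells and MPO, the granule peroxidase of immature myeloid cells, at 52578 and 15054. CD14 was at most 1.59 on average in any group, and PTPRC, the gene of the leukocyte antigen CD45, was listed at 0. The PTPRC entry, and that of POLR2B, a subunit of RNA polymerase II that was also listed at 0 and was picked after its values were seen, show that a 0 in this table need not mean a silent gene. Reads were counted per transcript, and of the transcripts without a base of their own only 2.02% had 10 or more reads over all libraries, against 33.5% of those with such bases.

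IGFBP5, on the minus strand of chromosome 2, and IGFBP4, on the plus strand of chromosome 17, carried nearly all reads of the family, and the bases before their transcription starts differ in CG content. Both promoters are shown because DAC acts on methylated CG. They are the 250 bases before the start, 5′ to 3′ on the gene's strand, from RefSeq on GRCh38.p14, at chr2:216695550-216695799 (minus strand) for IGFBP5 and chr17:40443200-40443449 (plus strand) for IGFBP4. Capitals mark CG.

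IGFBP5: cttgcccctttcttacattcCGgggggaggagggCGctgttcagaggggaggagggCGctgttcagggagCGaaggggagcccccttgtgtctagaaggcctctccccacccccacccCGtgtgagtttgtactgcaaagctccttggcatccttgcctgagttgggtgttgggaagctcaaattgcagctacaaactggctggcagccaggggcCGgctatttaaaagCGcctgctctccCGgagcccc

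IGFBP4: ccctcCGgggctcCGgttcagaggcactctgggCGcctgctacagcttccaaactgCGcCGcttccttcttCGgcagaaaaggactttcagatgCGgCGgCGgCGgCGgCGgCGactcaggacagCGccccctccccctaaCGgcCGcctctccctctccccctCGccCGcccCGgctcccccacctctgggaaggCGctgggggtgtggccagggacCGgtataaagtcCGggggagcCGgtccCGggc

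In the 250 bases shown, IGFBP5 had 8 CG and IGFBP4 had 24. Over the full table window of 300 bases, which runs 50 bases into the transcript, the counts were 9 and 30, against a median of 14 over all 35116 promoters of the table, and the ratio of observed to expected CG was 0.347 and 0.746, against a median of 0.579. IGFBP3 had 36 CG in its window and IGFBP6 had 12. IGFBP2 has 3 entries, with 8, 28 and 6 CG. Of the motifs searched on both strands, the half-site AGGTCA of retinoic acid receptors was present in 13.8% of all promoters, and among the members only in 1 of the IGFBP2 entries. Direct repeats of AGGTCA with 5, 2 or 1 bases between the copies were found in 0.0057%, 0.00285% and 0.0228% of all promoters and in none of the 7 member entries. A TATA box (TATAAA, 11.5% of all promoters) lay 29 bases before the start of IGFBP4, which also had 2 GC boxes (GGGCGG, 45% of all promoters). The IGFBP5 window held none of these letters, nor CCAAT (34.6% of all promoters). These counts are a description of short windows, and a window without the letters says nothing about sites elsewhere.

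The 7 genes had 30 transcripts in the table, 23 of them protein-coding, and 10 had at least 1 read. All members together had 63853 reads over the 12 libraries, of which 41836 belonged to IGFBP5 and 21626 to IGFBP4. IGFBP7 had 280 reads, IGFBP2 had 102, IGFBP6 had 9, and IGFBP1 and IGFBP3 were listed at 0. Only 3 transcripts reached the limit for testing (10 or more normalized reads in 3 or more libraries), and they belong to IGFBP4 (ENST00000269593.4), IGFBP5 (ENST00000233813.4) and IGFBP7 (ENST00000514062.2). IGFBP5 passed this limit only through the DAC and DAC + ATRA libraries.

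**Figure D1:**
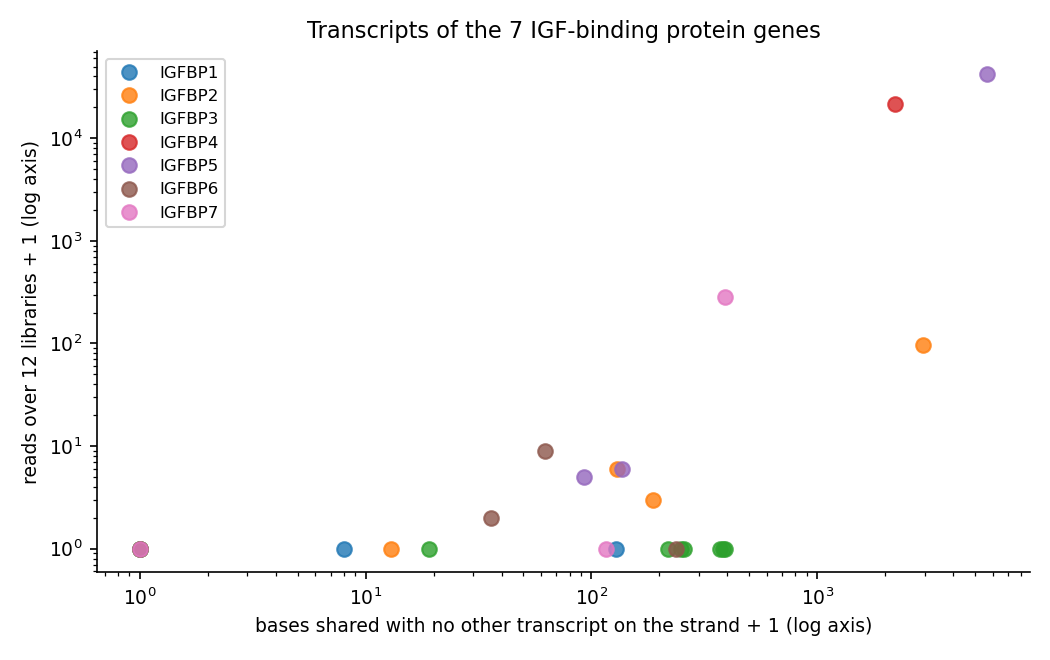
Each point is 1 of the 28 transcripts of the 7 genes that were found in the annotation, plotted by the bases it shares with no other transcript of the same strand (x axis, plus 1, log axis) and by its reads over the 12 libraries (y axis, plus 1, log axis). IGFBP5 with 41827 reads and IGFBP4 with 21626 reads stand far above the others, and the transcripts without bases of their own lie at 0 reads.

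The way the reads were counted bears on which members could be seen at all. IGFBP4 has a single transcript, and all of its 2205 bases are its own. The main IGFBP5 transcript owns 5653 of its 6239 bases, 4778 of them in its last exon. By contrast, the full-length IGFBP7 transcript (ENST00000295666.6) has 0 bases of its own and was listed at 0 reads. The IGFBP7 values below are those of an isoform with another last exon and 388 own bases, of which only 8 are coding. The standard IGFBP6 transcript also has 0 own bases, the standard IGFBP2 transcript has 12, and IGFBP1 has 135 over its 3 transcripts. IGFBP3, the main carrier of IGFs in serum, has 1877 own bases over its transcripts and was still listed at 0 in every library, and a count of 0 allows for up to 3 reads per library.

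IGFBP5 RNA was close to absent without DAC, abundant with it, and most abundant with both agents. The 3 untreated libraries had normalized read counts of 0, 0 and 0.92, which is a single read in all. After ATRA alone the counts were 6.34, 0.91 and 3.33, from 11 reads. With DAC they were 2153, 4373 and 3330, and with DAC + ATRA 9685, 12458 and 11670. Every library with DAC lay far above every library without it, every DAC + ATRA library lay above every DAC library, and the ATRA and untreated libraries overlapped. Mean levels were 0.308 ± 0.533 without treatment, 3285 ± 1111 after DAC, 3.53 ± 2.72 after ATRA and 11271 ± 1429 after the combination (SD, n = 3 each). Among the DAC libraries, library 4 had less than both others.

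**Figure D2:**
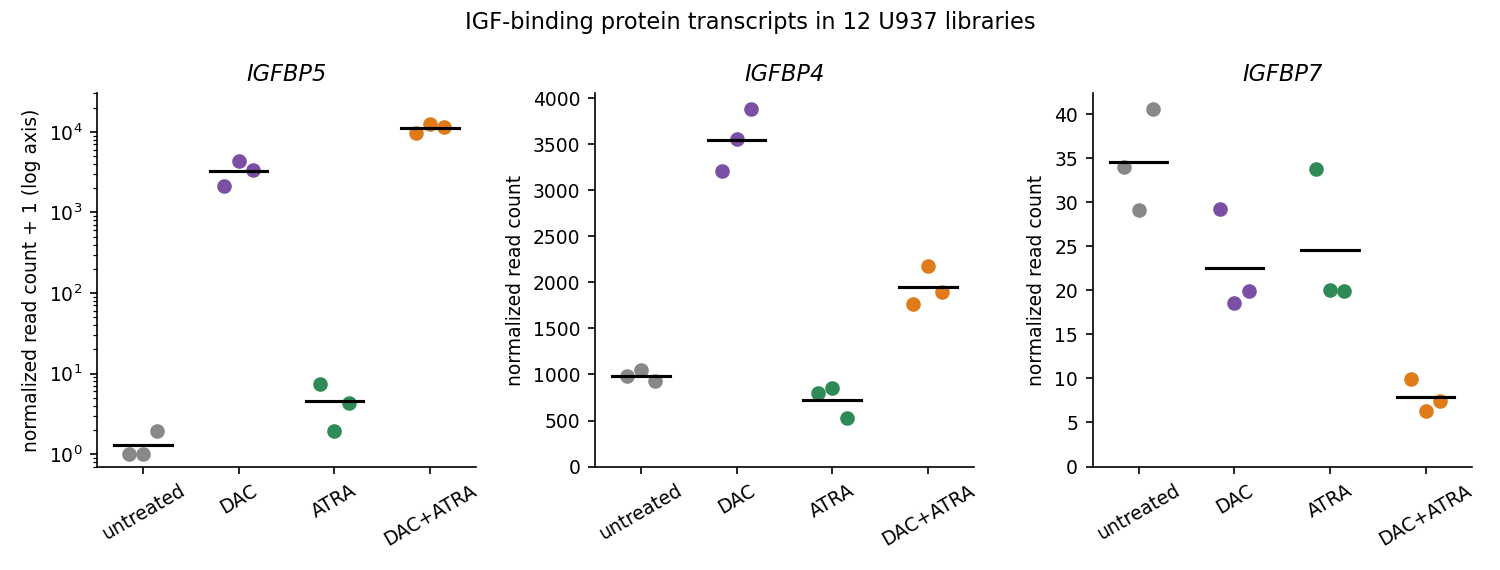
Normalized read counts of the tested transcripts of IGFBP5 (plus 1, on a log axis), IGFBP4 and IGFBP7 (linear axes from 0) in each of the 12 libraries, by treatment group, with horizontal bars at the group means. IGFBP5 rises from 0.308 to 11271 on average, IGFBP4 is highest with DAC alone at 3551, and IGFBP7 is lowest with DAC + ATRA at 7.89.

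Because the untreated libraries held 1 read, the size of the rise is known only within wide limits. The ratio of the pooled reads was 10867 for DAC (95% exact counting interval 1950 to 429267) and 36503 for DAC + ATRA (6551 to 1.44e+06), counting error only. Against ATRA alone, with its 11 reads, DAC + ATRA gave a ratio of 3296 (1842 to 6603). The ratio for ATRA against untreated cells was 11.1 (1.61 to 477), which rests on 11 reads against 1. On the scale of log2(normalized read count + 1) used for all fits, the changes were 11.31 after DAC, 1.66 after ATRA and 13.14 after the combination (SE 0.41 each), and IGFBP5 ranked 1 of 9016 tested transcripts with DAC and with DAC + ATRA, 208 with ATRA. The next transcripts in order reached 10.97 with DAC and 11.16 with DAC + ATRA.

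Between DAC + ATRA and DAC alone, where both groups are well covered (9824 and 31991 reads), the IGFBP5 means differed 3.43-fold. The fitted difference of the log2 values was 1.83 (SE 0.41), at rank 175 of 9016. In normalized reads, the rise with both agents exceeded the sum of the rises with each agent by 7983 (SE 1045). On the log2 scale the interaction was 0.17 (SE 0.59), but this value depends on the constant added to the near-empty groups and was -1.87 with a constant of 0.1 in place of 1. Leaving out any single library kept the DAC + ATRA against DAC difference between 1.55 and 2.07.

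IGFBP4, which holds IGFs away from their receptor, had the most reads before treatment of the members that this counting could see. It was highest with DAC alone, and lower with DAC + ATRA than with DAC. The untreated libraries had 982, 1045 and 928 normalized reads, the DAC libraries 3210, 3557 and 3884, the ATRA libraries 803, 852 and 522, and the DAC + ATRA libraries 1766, 2182 and 1897. No group overlapped another, and the order from high to low was DAC, DAC + ATRA, untreated, ATRA. The means were 3551 ± 337 with DAC, 1948 ± 213 with DAC + ATRA, 985 ± 58.5 in untreated cells and 725 ± 178 with ATRA (SD, n = 3 each).

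IGFBP4 rose with DAC, with a ratio of means of 3.60 (fitted log2 1.85, SE 0.14, limma adjusted p = 2.17e-09) and with DAC + ATRA, with a ratio of means of 1.98 (fitted log2 0.98, adjusted p = 9.59e-06). With DAC + ATRA it was lower than with DAC alone (log2 -0.87, adjusted p = 0.000199) and higher than with ATRA alone (log2 1.45, adjusted p = 7.93e-08). The lower level with ATRA alone (log2 -0.47, adjusted p = 0.0334) did not pass the threshold of 0.01. At that threshold it passed in 5 of 21 alternatives, among them edgeR (adjusted p = 0.00275), DESeq2 (0.00127) and the fit without ATRA library 8 (0.00765), and it was only -0.25 on the log2 scale without ATRA library 9, the lowest of all 12. The interaction of both agents on the log2 scale (0 if the combination equals the sum of the single changes) was -0.40 (SE 0.20, adjusted p = 0.339) and passed only without that same library (-0.62, adjusted p = 0.00602). In normalized reads, the difference between the rise with both agents and the sum of the single changes was -1343 (SE 254).

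IGFBP5 and IGFBP4 thus changed places between DAC and DAC + ATRA. Their levels were set side by side per kb of own sequence, which is most of both transcripts (2205 of 2205 bases for IGFBP4, 5653 of 6239 for IGFBP5). IGFBP4 stood at 1456, 1613 and 1762 normalized reads per kb in the DAC libraries and IGFBP5 at 381, 774 and 589. In the DAC + ATRA libraries IGFBP4 was at 801, 990 and 860 per kb and IGFBP5 at 1713, 2204 and 2064. The ratio of IGFBP5 to IGFBP4 was therefore 0.262 to 0.480 with DAC and 2.14 to 2.40 with DAC + ATRA, without overlap. Among 7797 protein-coding transcripts with at least 100 own bases, the mean level per kb of IGFBP5 ranked 7533 in untreated cells, 1027 with DAC and 249 with DAC + ATRA. That of IGFBP4 ranked 1101, 320 and 648 in the same order. These ranks are rough, since reads need not be confined to own bases (INSR had 9408 reads with 10 own bases).

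IGFBP7, measured on an alternative isoform, was called lower than in untreated cells by limma, and IGFBP4, the other of the 2 members with a test, was not. The untreated libraries had 34.0, 29.1 and 40.6 normalized reads, the DAC libraries 29.2, 18.5 and 19.9, the ATRA libraries 33.8, 20.0 and 20.0, and the DAC + ATRA libraries 9.94, 6.32 and 7.41. The DAC + ATRA libraries lay below all others, while the remaining groups overlapped each other. The mean fell from 34.6 ± 5.77 in untreated to 7.89 ± 1.86 in DAC + ATRA-treated cells (log2 -2.01, SE 0.29, adjusted p = 4.34e-06). Against ATRA alone the difference was -1.50 (adjusted p = 0.00019), and against DAC alone it was -1.40 (adjusted p = 0.00124), which no longer passed without DAC library 4 (adjusted p = 0.0127). The values with DAC (log2 -0.61, adjusted p = 0.0806) and with ATRA (-0.51, adjusted p = 0.279) and the interaction (-0.89, adjusted p = 0.259) did not pass. Only 23 reads lie behind the DAC + ATRA values, and the RNA of the full-length isoform was not measured.

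**Figure D3:**
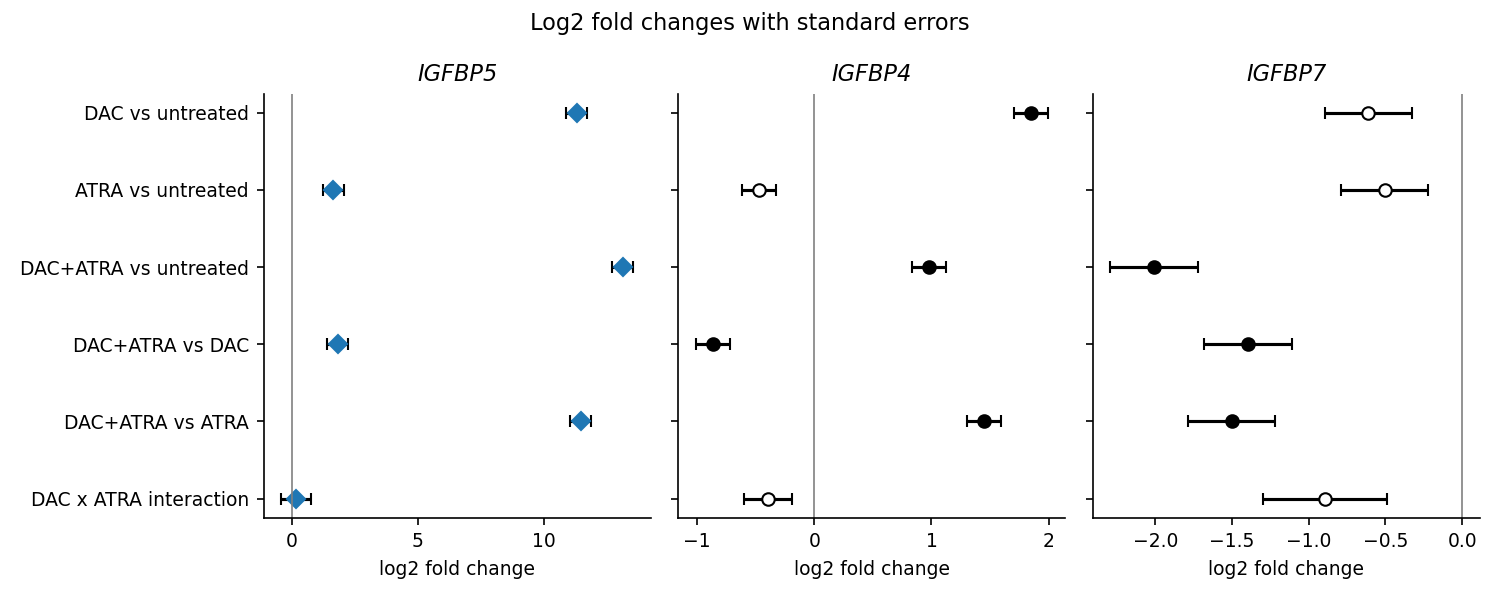
Log2 fold changes of IGFBP5, IGFBP4 and IGFBP7 (x axes, log2 of normalized read count + 1) in 5 comparisons and the DAC × ATRA interaction, with bars of 1 standard error. Filled circles passed an adjusted p under 0.01 and open circles did not, and the diamonds of IGFBP5 carry no test. IGFBP4 lies at 1.85 with DAC and at -0.87 for DAC + ATRA against DAC, and IGFBP7 lies below 0 in every comparison.

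Read against all 9016 tested transcripts, a call on its own was not rare in these cells. With DAC, 1 of the 2 members other than IGFBP5 was called, and it was higher, where 39.3% of all tested were called, 30.6% higher and 8.7% lower. With ATRA, limma called 0 of 2 (1 at an unadjusted p under 0.05, and 1 by edgeR and by DESeq2), against 9.14% of all, 6.47% higher and 2.67% lower. With DAC + ATRA, 1 was higher and 1 lower, against 46.8% of all, 32.6% higher and 14.2% lower. For DAC + ATRA against DAC both were lower, against 11.3% of all, 6.08% higher and 5.26% lower. For DAC + ATRA against ATRA, 1 was higher and 1 lower, against 34.8% of all, 25.9% higher and 8.88% lower. The interaction was called for 0 of 2 (1 at an unadjusted p under 0.05, and 0 by edgeR and DESeq2), against 2.46% of all, 0.787% positive and 1.67% negative. The median of all tested was 0.22 with DAC and 0.20 with DAC + ATRA on the log2 scale, and other scalings brought it to between 0.02 and 0.10. Relative to that median, IGFBP4 was higher by 1.63 with DAC and by 0.78 with DAC + ATRA, and IGFBP7 stood at -2.21 with DAC + ATRA.

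The remaining members gave few reads. For IGFBP2, which is abundant in serum and brain fluids, 95 of the 102 reads fell on a transcript with a retained intron (ENST00000490362.1) that is not protein-coding and was not tested. Its normalized read counts were 14.7, 6.37 and 11.1 without treatment, 8.65, 7.79 and 8.96 after DAC, 7.39, 1.82 and 4.99 after ATRA and 7.23, 5.26 and 8.65 after the combination, and of these groups only the DAC and ATRA libraries did not overlap. The protein-coding IGFBP2 transcripts had 7 reads in all. IGFBP6, which prefers IGF2, had 9 reads, at most 2 in any library. Also, 2 shorter IGFBP5 transcripts had 5 and 4 reads, of which 8 came from DAC + ATRA libraries and 1 from a DAC library.

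Only 1 protein-coding neighbour of IGFBP5 could be tested, and it was not called higher. The protein-coding neighbourhood was thus hardly seen. IGFBP5 (chr2:216672105-216695549 on hg38, 4 exons) faces IGFBP2 tail to tail with 7668 bases between them, and IGFBP2 stayed at the values above. Of the 6 protein-coding genes within 500000 bases, only RPL37A, a ribosomal protein gene, was tested. It fell by 0.41 with DAC and by 0.78 with DAC + ATRA on the log2 scale (limma adjusted p = 0.00514 and 6.97e-06). XRCC5, SMARCAL1 and TNP1, which were not tested, had means of at most 2.02, 1.25 and 4.56 in any group. MARCHF4, a membrane ubiquitin ligase that stayed under the limit for testing, had means of 0 without treatment, 13.6 after DAC, 1.82 after ATRA and 5.16 after the combination, and is named after its values were seen. The antisense RNA DIRC3-AS1 overlaps 298 bases of the IGFBP5 transcript, none of them among its own bases, and had 2.76 to 7.39 normalized reads in untreated, 8.77 to 10.8 in DAC-treated, 5.46 to 14.98 in ATRA-treated and 31.6 to 34.6 in DAC + ATRA-treated cells. The RNA of DIRC3 had 12.01 to 24.8, 55.5 to 66.7, 15.8 to 38.0 and 84.2 to 122 in the same order, so both were higher in every library with DAC + ATRA than in any other. Neither is protein-coding, and they were not among the 9016 tested transcripts. The libraries were strand-specific, but whether the counting used the strand is not given in the sources used here. At most 34.6 normalized reads of DIRC3-AS1 stood against 9685 or more of IGFBP5 in those libraries.

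IGFBP4 lies at chr17:40443450-40457725 in a region with more tested genes. Here and for IGFBP5, each protein-coding neighbour is represented by its coding transcript with the most reads on average. For RARA this is 1 of 7 coding transcripts. Of 29 protein-coding neighbours within 500000 bases, 13 were tested, of which 9 rose and 1 fell with DAC, 6 rose and 2 fell with DAC + ATRA, and 1 rose and 2 fell with ATRA. Since GSDMA, TNS4 and CCR7 had less than 10 normalized reads in every untreated library and passed the limit through treated cells, the other 10 are the better basis. Of these, 6 rose and 1 fell with DAC, where 23.6% and 10.1% of the 7716 tested transcripts with 10 or more normalized reads in an untreated library did. With DAC + ATRA 3 rose and 2 fell, against 24.7% and 16.6%, and with ATRA 0 rose and 2 fell, against 5.74% and 3.01%. RARA, the gene of retinoic acid receptor alpha, lies 85806 bases away and rose with DAC (log2 1.27, adjusted p = 1.25e-06) and with DAC + ATRA (log2 2.07, adjusted p = 6.75e-10). Its means were 128 before treatment, 310 after DAC, 193 after ATRA and 542 after the combination, so that, unlike IGFBP4, it was higher with both agents than with DAC alone (log2 0.81, adjusted p = 0.000972). Of the adjacent genes, TOP2A, a topoisomerase of dividing cells, did not pass with DAC (log2 -0.14, adjusted p = 0.269), whereas TNS4, a focal adhesion protein, was at 0 in every untreated library and at least 15.5-fold higher with DAC and at least 23.6-fold higher with DAC + ATRA, against 3 reads over the untreated group. CDC6, a replication licensing factor, was the gene that fell with DAC (log2 -0.48). NOA1, the sole tested neighbour of IGFBP7, did not pass in any comparison with untreated cells, and POLR2B, which overlaps the span of IGFBP7, was listed at 0.

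**Figure D4:**
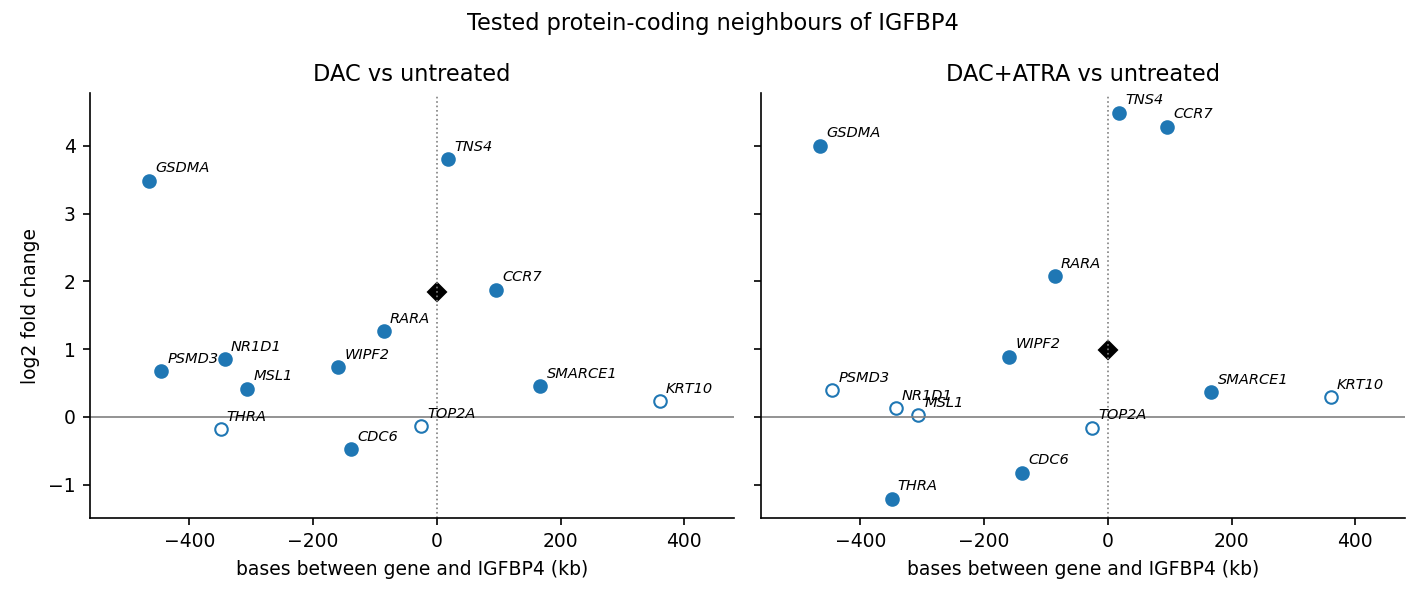
Log2 fold changes with DAC and with DAC + ATRA (y axes) of the 13 tested protein-coding genes within 500000 bases of IGFBP4, by the bases between the gene and IGFBP4 in kb (x axes, negative before IGFBP4). Filled circles passed an adjusted p under 0.01, open circles did not, and the black diamond is IGFBP4 itself at 1.85 and 0.98. With DAC most filled circles lie above 0, and RARA moves from 1.27 to 2.07.

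Across the 12 libraries, the genes whose log2 values ran most like those of IGFBP5 among 7617 compared were ATP6V0A1 (Pearson r = 0.995), CDCP1 (0.994), GSDMA (0.994), IQSEC1 (0.992) and ACVRL1 (0.992), against a median of 0.385. ATP6V0A1 is a subunit of the vacuolar proton pump, here an isoform with means of 0.308, 49.3, 0.933 and 87.7 in the order untreated, DAC, ATRA and DAC + ATRA. IQSEC1, an exchange factor for ARF GTPases, went from 481 to 1454, 500 and 1901 in that order. The pattern closest to IGFBP4 was that of FZD5, a Wnt receptor (r = 0.993), with means of 393, 1182, 312 and 711, followed by PVRL2 (0.993) and SNAI1 (0.989). IGFBP7 was matched best by C17orf105 (0.969), MAPK12 (0.962) and SLC16A10 (0.954). These correlations run over 4 groups of 3 libraries that share treatment and scaling, and serve as a description only.

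The wider IGF system was followed with 82 further genes present in the table, each represented by whichever of its coding transcripts had the most reads on average, of which 44 were tested. With DAC 19 rose and 2 fell (43.2% and 4.55%, against 30.6% and 8.7% of all tested), with ATRA 8 rose and 4 fell (18.2% and 9.09%, against 6.47% and 2.67%; the 12 calls became 7 without untreated library 2, without ATRA library 7 or with only the compared groups in the fit), and with DAC + ATRA 20 rose and 8 fell (45.5% and 18.2%, against 32.6% and 14.2%). Their median log2 changes were 0.42, 0.00 and 0.58, against 0.22, 0.00 and 0.20 over all tested. Since 10 of the 44 had less than 10 normalized reads in every untreated library and passed the limit through treated cells, the other 34 are the better basis. Of these, 10 rose and 2 fell with DAC, 4 rose and 3 fell with ATRA, and 12 rose and 8 fell with DAC + ATRA, with medians of 0.10, -0.07 and 0.21. The 29.4% that rose with DAC and the 35.3% with DAC + ATRA stand against 23.6% and 24.7% of all tested transcripts with 10 or more normalized reads in an untreated library, and the 5.88% and 23.5% that fell against 10.1% and 16.6%. With ATRA, 11.8% rose and 8.82% fell, against 5.74% and 3.01%. Those transcripts had median changes of 0.11 with DAC and 0.05 with DAC + ATRA. With DAC, the median of the 34 genes was thus about that of all such transcripts. The number that fell with DAC was 5 or 6 under the other scalings, and the number that rose stayed at 19. limma called no interaction among the 44 (15 at an unadjusted p under 0.05), edgeR called 0 and DESeq2 called 1.

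RNA of the growth factors themselves was hardly seen. Of 10 ligands and ligand carriers, none reached the limit for testing. IGF1 had 3 reads over all libraries, IGFALS, the subunit that holds IGFs in the serum complex, had 4, and IGF2, whose transcript has 0 own bases, was listed at 0. Of the receptors, IGF2R, which takes up IGF2 for degradation, was the most abundant, with 4364 ± 315 normalized reads before treatment, 10903 ± 1770 after DAC, 6198 ± 532 after ATRA and 12880 ± 1434 after both (SD, n = 3 each). It rose with DAC (log2 1.31, adjusted p = 5.84e-09), with ATRA (0.50, adjusted p = 0.00393) and with both (1.56, adjusted p = 2.96e-10). LRP1, an endocytic receptor, rose with DAC by 3.33 and with both agents by 3.12 on the log2 scale. INSR, the insulin receptor, fell with ATRA by 0.44 and with both agents by 0.65 and did not pass with DAC (-0.19). The INSR transcript used has 10 own bases of 8954 and held 9408 of the 9458 reads of the gene. The IGF1R transcript chosen in this way had 6 reads over the 12 libraries, and the 87 reads over all IGF1R transcripts, coding or not, leave the receptor without a usable value.

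**Figure D5:**
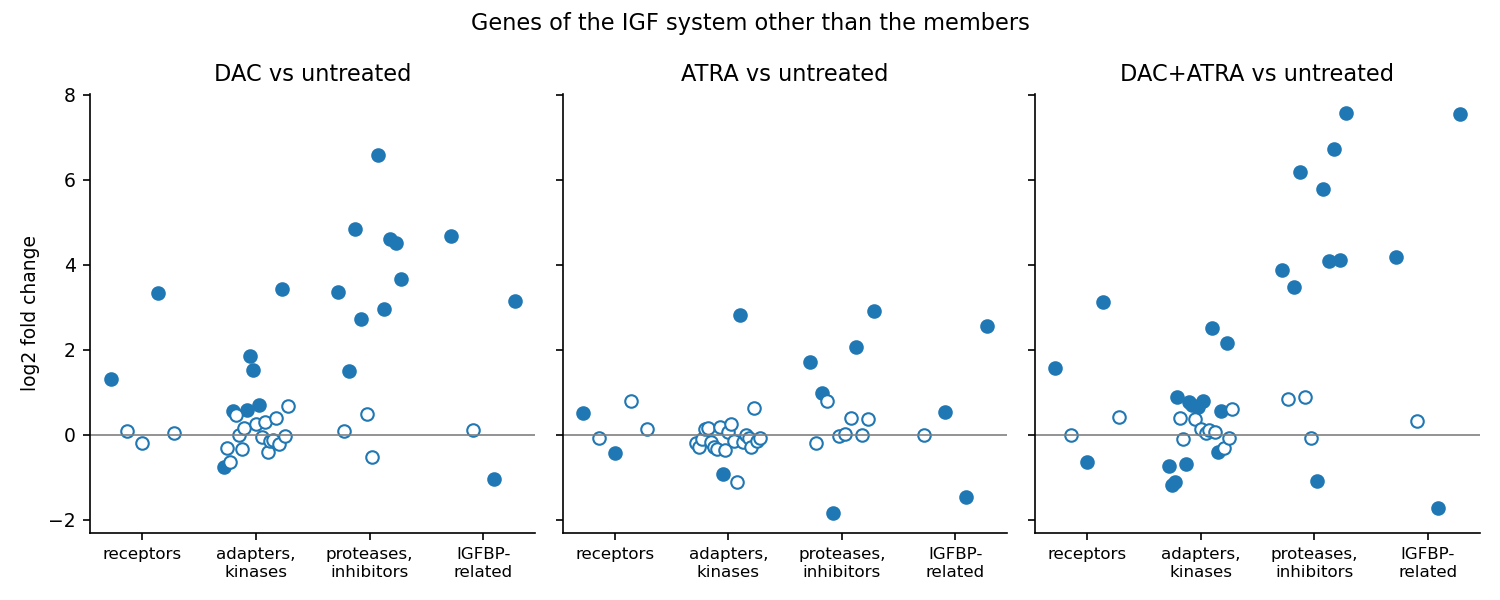
Log2 fold changes (y axis) of the 44 tested genes of the IGF system other than the 7 members, by role (x axis) and treatment against untreated cells. Filled circles passed an adjusted p under 0.01 and open circles did not. In the group of proteases and their inhibitors 9 of 12 rose with DAC and 8 of 12 with DAC + ATRA, up to 7.56 for THBS1, while adapters and kinases lie on both sides of 0.

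The enzymes that cleave IGF-binding proteins, listed with their inhibitors and matrix partners, held the largest changes of these roles with DAC. Of 12 tested, 9 rose and 0 fell with DAC, 4 rose and 1 fell with ATRA, and 8 rose and 1 fell with DAC + ATRA, where 30.6%, 6.47% and 32.6% of all tested rose. Of these 12, 6 passed the limit for testing through treated cells, and of the other 6, with 10 or more normalized reads in an untreated library, 3 rose with DAC and 3 with DAC + ATRA, which are too few to set against the share of all tested. With DAC the highest was MMP9, a gelatinase, at 19.3, 12.7 and 10.2 in the untreated and 1278, 1409 and 1497 in the DAC libraries (log2 6.58, limma adjusted p = 1.31e-13). The smallest rise was that of CTSD, a lysosomal protease (1.51). The CTSD value rests on an isoform with 271 own bases of 2190, which held 890 of the 1009 reads of the gene. With both agents THBS1, a matrix protein that binds IGFBP5, went furthest, from 0.92, 0 and 0 to 203, 248 and 252 normalized reads, and the pooled reads gave a ratio of 759 (95% exact counting interval 136 to 30015). MMP7 was the single gene of this group that fell with both (log2 -1.10), and MMP1 the single one called lower with ATRA, at 2.76, 6.37 and 3.69 normalized reads before treatment and 0, 1.82 and 0 after it, which are too few for a usable fold change. PAPPA, the main protease of IGFBP4, had 3 reads over all libraries. Its inhibitors, named after their values were seen, rose: STC2 went from 19.3, 14.6 and 26.8 to 411, 517 and 479 with DAC and to 302, 385 and 387 with DAC + ATRA, and STC1 from a single read to 133 ± 32.3 normalized reads with DAC + ATRA.

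Among the adapters and kinases, 6 of 23 rose and 1 fell with DAC, 1 rose and 1 fell with ATRA, and 8 rose and 5 fell with DAC + ATRA. The share that rose, 26.1% with DAC and 34.8% with DAC + ATRA, lay near the 30.6% and 32.6% of all tested. The share that fell was 4.35% with DAC and 21.7% with DAC + ATRA, against 8.7% and 14.2%, and with ATRA 4.35% rose and 4.35% fell, against 6.47% and 2.67%. IRS1, the adapter that couples both the IGF1 and the insulin receptor to PI3 kinase, followed the order of IGFBP4, with means of 1157 ± 130 after DAC, 410 ± 47.3 after both, 317 ± 32.3 before treatment and 166 ± 21.5 after ATRA. It rose with DAC (log2 1.86, adjusted p = 1.93e-10), fell with ATRA (-0.94, adjusted p = 2.08e-05) and did not pass with both (0.37, adjusted p = 0.0216). PIK3CG, the PI3 kinase subunit of leukocytes, rose with ATRA (2.83) and with both agents (2.50). The highest change with DAC was that of RPTOR, here a short isoform with 6 reads in the untreated group (3.42), and the lowest were AKT1 with DAC (-0.76) and AKT2 with both agents (-1.19). The AKT1 value rests on an isoform with 34 own bases that held 524 of the 1607 reads of the gene, and the AKT2 value on one with 462 of 2319 reads. Of the proteins related to IGFBPs by sequence, NOV fell in all 3 treatments, from 133 ± 7.77 to 63.4 ± 4.56, 47.3 ± 3.50 and 40.5 ± 14.1. CTGF was at 0 in all untreated and ATRA libraries and at least 27.3-fold higher with DAC, and WISP1 had a ratio of 315 with DAC + ATRA (107 to 1530).

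Since IGFBP5 is known from stromal cells, markers of other cell types were set beside it. The summed level of 10 fibroblast and stromal markers was 25.5 to 47.1 normalized reads before treatment, 668 to 717 after DAC, 113 to 123 after ATRA and 501 to 565 after both, so that every DAC + ATRA library was below every DAC library, where for IGFBP5 it was above. The markers did not move alike, since PDGFRB had a mean of 250 with DAC and 283 with both agents, in ranges of 221 to 294 and 268 to 309 that overlap, while COL1A1 had 238 and 145. Of these markers, 5 were above 3 reads in every DAC library and 4 in every DAC + ATRA library, led by PDGFRB, COL1A1 and THY1, while COL3A1 and DCN were listed at 0 throughout. The 5 smooth muscle markers stayed between 24.7 and 42.4, almost all of it TAGLN. The 5 endothelial markers, nearly all VWF, summed to 4.60 to 11.1 before treatment, 65.3 to 80.7 after DAC, 3.33 to 16.9 after ATRA and 69.2 to 82.1 after both, and were thus higher in every library with DAC, as IGFBP5 was. The 7 epithelial and hepatic markers were also higher in every library with DAC, at 0 to 1.82 before treatment, 10.8 to 27.3 after DAC, 0 after ATRA and 12.4 to 24.2 after both. The 5 T and B cell markers, mainly CD79A, summed to 133 to 143 before treatment, 522 to 536 after DAC, 229 to 374 after ATRA and 1317 to 1395 after both agents, and were thus, like IGFBP5, higher with both agents than with DAC in every library. The sum of the 12 monocytic and myeloid markers, mostly MPO, was 61558 to 68816 before treatment, 39032 to 56561 after DAC, 41615 to 59499 after ATRA and 36014 to 38782 after both. The markers of that list did not move alike. The means without treatment, after DAC, after ATRA and after both were 206, 874, 1030 and 2796 for ITGAM, the gene of the integrin CD11b, and 164, 806, 179 and 1097 for LYZ, the lysozyme gene. CSF1R, the receptor of macrophage colony-stimulating factor, had 0.611 and 25.0 without treatment and after both, and CEBPA, a myeloid transcription factor, had 7791, 14951, 12596 and 12930 in the order of groups above. By contrast, FCGR1A, a monocyte Fc receptor, had means of 162, 233, 140 and 133 in the same order of groups, SPI1, a myeloid transcription factor, had 130, 111, 166 and 120, and CD14 stayed near 0 as given above. Whether fewer or more cells carried a transcript, or each cell carried less or more of it, cannot be told apart in these bulk libraries, and the part of marker changes in the IGFBP values was not tested.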

How the data were processed

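Per the labels, the libraries were rRNA-depleted and strand-specific, and the submitters' processing notes name STAR, HTSeq, DESeq2 and the build hg38. Versions, annotation and counting mode are not given in the sources used here. In the deposited signal table, the authors divided the reads of each transcript by a size factor of the library. Within a tolerance of 0.001 reads, 100% of values were whole multiples of the library's step, which gave back the reads.

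Transcripts were matched by identifier to GENCODE 44 (174768 of 197782). Own bases are those shared with no other listed transcript of the same strand. Protein-coding transcripts with at least 10 normalized reads in at least 3 libraries (9016) were tested with limma 3.58.1 (R 4.3.3, eBayes with trend and robust options) on values logged to base 2 after adding 1, all 12 libraries in 1 fit, with Benjamini-Hochberg adjustment and a threshold of 0.01. The plan named edgeR for counts and this test for normalized values. Alternatives were edgeR 4.0.16 and DESeq2 1.42.0 on the recovered reads, other scalings, filters, features, pseudocounts and thresholds, and leaving out each library, numbered as in the table. The tests were also run on simulated data, and the outcome is not given here.

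All 7 members are named, and of the IGF system the called genes with the highest and lowest change per role and treatment, with IGF1, IGF2, IGF1R, IGF2R, INSR, IGFALS and PAPPA. The members and lists were chosen with earlier results of these data known. Promoters come from RefSeq (GRCh38.p14), without an entry for IGFBP1 and IGFBP7.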

Additional observations from a re-analysis of the deposited data

How the results depend on the processing

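The directions of IGFBP4 and IGFBP7 held under every alternative, whereas the IGFBP5 interaction, which carries no test, changed sign. For the members other than IGFBP5, the count called with ATRA was 0 and became 1 (IGFBP4) with edgeR, with DESeq2, with scaling by library size, with size factors from protein-coding transcripts, at a threshold of 0.05 and without ATRA library 8. Leaving out each library in turn gave 0 to 1 for ATRA and for the interaction, 1 to 2 for DAC + ATRA against DAC, and the reported 1, 2 and 2 for DAC, DAC + ATRA and DAC + ATRA against ATRA. The IGF system count with ATRA was 12, became 7 with only the compared groups in the fit, and ran from 7 to 12 over the libraries left out, where untreated library 2 and ATRA library 7 each gave 7. Counting only genes with 10 or more normalized reads in an untreated library, a choice made after seeing the data, gave 12 with DAC in place of 21 and 7 with ATRA in place of 12. The IGFBP5 interaction, at 0.17, was -1.20 with edgeR and -1.55 with DESeq2, and the IGFBP5 change with DAC was 12.73 and 13.11. No paired analysis was possible because the columns carry no replicate numbers of the labels. At this depth, transcripts with fewer than 3 reads give no usable level, and few of those without bases of their own have reads (GAB1 of the IGF system, with 1365, is one).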
